A study of Mus musculus with 8 samples.

Results

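The gene Atf4 and 9 genes of amino acid synthesis that its product is known to activate were followed in N2a, a mouse neuroblastoma cell line, with and without forced expression of neurensin-2 (Nrsn2). The genes were chosen by name: Atf4, the asparagine synthetase gene Asns, the serine synthesis genes Phgdh, Psat1 and Psph, the one-carbon genes Shmt2 and Mthfd2, the proline synthesis genes Aldh18a1 and Pycr1, and the cysteine synthesis gene Cth. Each matched 1 of the 49164 genes with counts, and all 10 passed the filter on low counts. The rule that picks them uses names, not measured values, but the list was chosen with earlier results of these data known. The overexpression group (Nrsn2 OE) held 4 libraries, made 24 hours after an Nrsn2 construct was delivered transiently with the reagent TransIT-X2, and the control group held 4 libraries of N2a cells grown in the same high-glucose medium with serum and antibiotics. One treatment text covers both groups, and what was delivered to the control cells is not stated, so effects of transfection and of Nrsn2 cannot be told apart. No promoter is named for the construct. Since nothing says that replicates were separate cultures, p-values measure the spread between these libraries, which may be technical.

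ATF4 is the transcription factor of the integrated stress response. When kinases phosphorylate the initiation factor eIF2, general translation slows and the Atf4 transcript, which carries upstream open reading frames, is translated more, so that ATF4 protein can change with little change in its mRNA. Only RNA was measured here. ATF4 pairs with C/EBP proteins on composite elements near genes for amino acid uptake and synthesis, and it is known for switching on these genes in cells short of amino acids or under stress in the endoplasmic reticulum. Its enzymes here draw on glycolysis to make serine, pass carbon from serine to folate in mitochondria, and make proline, asparagine and cysteine.

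PolyA RNA was counted per gene in libraries of 15347255 to 21395096 counts. Nrsn2 reached 147, 173, 156 and 170.0 CPM (counts-per-million, scaled between libraries by the TMM method) in overexpression libraries 1 to 4, against 8.42, 8.53, 6.54 and 10.6 CPM in control libraries 1 to 4, so the libraries matched their labels. All 8 sympathoadrenal and neuronal markers listed for N2a cells, Hand2 and Isl1 among them, were at 10.8 or more unscaled CPM (over all counts) in every library. Their summed level was 1143 to 1187 unscaled CPM in overexpression libraries and 1528 to 1769 in control libraries. This sum moved with the groups, and its part in the results was not tested. Gata3 of the list moved the other way, at a mean of 17.0 unscaled CPM with overexpression and 11.9 in control libraries. Summed fibroblast markers stayed at 6.96 to 8.46 unscaled CPM with overexpression and 7.17 to 8.90 in controls, leukocyte markers at 1.25 to 1.87 with overexpression and 0.72 to 0.98 in controls, and epithelial markers at 0.23 to 1.10 with overexpression and 0.69 to 1.37 in controls. Col1a2, Ptprc, Cd3e, Epcam and Krt18 were at 0 in the library where each was lowest, Col1a2 in 1 library only. The other markers of these lists were above 0 in every library, and the fibroblast marker Pdgfra was at 5.54 to 7.01 unscaled CPM. In bulk RNA, fewer cells using a gene and less of its RNA per cell cannot be told apart.

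With overexpression, 6 of the 10 genes fell: Cth, Psat1, Psph, Phgdh, Aldh18a1 and Asns. Their log2 fold changes, overexpression over control, ran from -0.64 for Cth to -0.20 for Asns. None of the genes rose, and Atf4 itself was not called. Calls are an adjusted p under 0.05 in edgeR's quasi-likelihood test over 15187 genes, of which 16.8% were called lower and 18.6% higher. The count of members called higher was 0 by edgeR, by DESeq2 and by limma-voom. At an unadjusted edgeR p under 0.05 it was also 0, while 7 were lower. The shares of all tested genes at that unadjusted level were not counted and are larger than those at the adjusted level. The median log2 fold change of the 10 genes was -0.27, beside -0.0009 over all tested genes. In 6 of the 10 every overexpression library was below every control library, which held for 15.4% of all tested genes, and in 0 every overexpression library was above, which held for 17.2%. These 6 were the genes called lower.

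**Figure D1:**
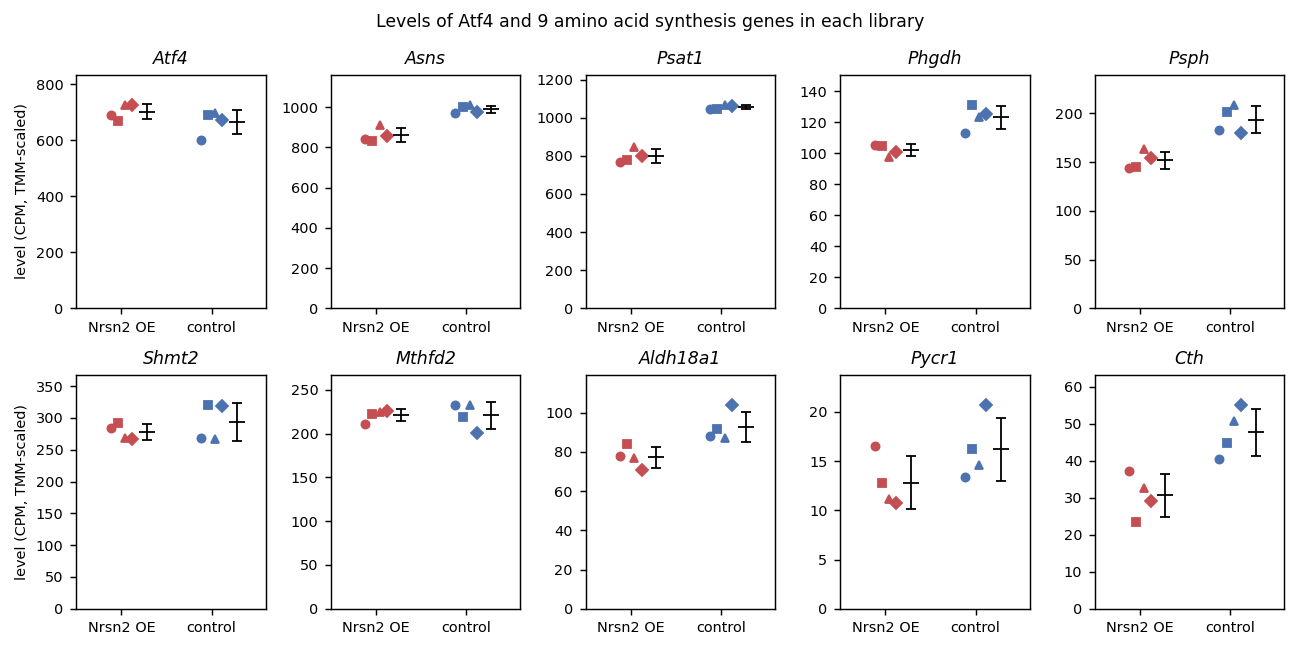
Level of each of the 10 genes in CPM (vertical axis, linear from 0) in the 4 Nrsn2 overexpression libraries (red, left) and the 4 control libraries (blue, right). Circle, square, triangle and diamond stand for libraries 1 to 4 of a group, and bars for the mean and SD. The groups are apart for Asns, Psat1, Phgdh, Psph, Aldh18a1 and Cth and overlap for Atf4, Shmt2, Mthfd2 and Pycr1.

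**Figure D2:**
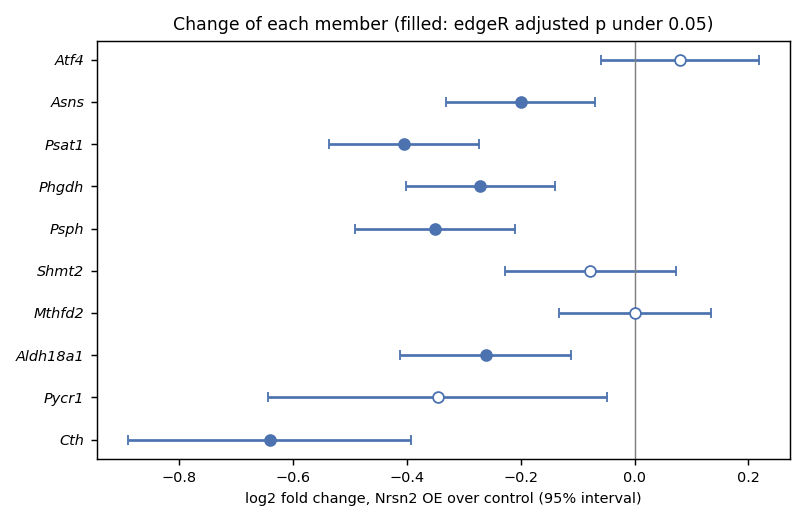
Log2 fold change of each gene, overexpression over control (horizontal axis), with its 95% interval from the edgeR fit. Filled points passed an adjusted p under 0.05. Cth lies farthest left at -0.64, and Mthfd2 lies at zero change.

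Atf4 (ENSMUSG00000042406, GRCm39 chromosome 15, 80139385 to 80141742, plus strand) was at 692, 668, 726 and 725 CPM in overexpression libraries 1 to 4 and at 603, 689, 697 and 672 CPM in control libraries 1 to 4. The ranges overlapped, and control library 1 was the lowest of all. Atf4 averaged 703 ± 27.9 CPM with overexpression and 665 ± 42.9 CPM in control libraries (SD, n = 4 each). The log2 fold change was 0.08 ± 0.07 (standard error, as for each log2 fold change here), with a 95% interval of -0.06 to 0.22 and an edgeR adjusted p of 0.371. Without control library 1 the estimate was 0.03. With library offsets for GC content and transcript length the estimate was -0.01, on the other side of zero.

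Serine is made from a glycolytic intermediate in a chain of 3 enzymes, and transcripts of all 3 fell. Phgdh, the dehydrogenase that opens the chain (ENSMUSG00000053398, chromosome 3, 98220486 to 98247306, minus strand), was at 105, 105, 97.7 and 101 CPM in overexpression libraries and 113, 131, 123 and 125 CPM in control libraries. Its highest overexpression library stayed below its lowest control library, and the log2 fold change was -0.27 ± 0.06 (edgeR adjusted p = 0.00265). Psat1, the aminotransferase of the middle step (ENSMUSG00000024640, chromosome 19, 15882042 to 15924701, minus strand), was at 766, 776, 847 and 801 CPM in overexpression libraries and 1047, 1047, 1066 and 1062 CPM in control libraries. The control libraries lay close together, and the gap between the groups was wider than the range inside either group. Psat1 fell by 0.40 ± 0.06 on the log2 scale (edgeR adjusted p = 9.44e-05), a change of -24.5%.

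Psph, the phosphatase that releases serine (ENSMUSG00000029446, chromosome 5, 129842622 to 129864513, minus strand), was at 144, 145, 163 and 155 CPM in overexpression libraries and 183, 202, 209 and 180.4 CPM in control libraries. It was lower in every overexpression library, with a log2 fold change of -0.35 ± 0.07 (edgeR adjusted p = 5.90e-04). The gene shares 452 bases with Cct6a on the opposite strand, where 19759 to 28386 counts were assigned, and since the library kit keeps no strand, reads within that shared stretch cannot be assigned to either gene by strand. The 95% intervals of Phgdh (-0.40 to -0.14), Psat1 (-0.54 to -0.27) and Psph (-0.49 to -0.21) overlap, and differences among the 3 falls were not tested.

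Asns makes asparagine from aspartate with glutamine as the nitrogen donor, and its promoter is a textbook target of ATF4. The gene (ENSMUSG00000029752, chromosome 6, 7675169 to 7693254, minus strand) was at 842, 832, 910.0 and 858 CPM in overexpression libraries and 971, 998, 1010.2 and 976 CPM in control libraries. The groups did not overlap, and overexpression library 3 lay nearest to the control libraries. The mean was 861 ± 34.6 CPM with overexpression and 989 ± 18.4 CPM in control libraries, a log2 fold change of -0.20 ± 0.06 (edgeR adjusted p = 0.0176). It was the smallest of the 6 falls, and without overexpression library 2 it no longer passed (log2 fold change -0.18, edgeR adjusted p = 0.0524).

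Among the 10 promoters that RefSeq gives for 9 of the genes, all but Cth, on build GRCm38.p6 and from 250 bases before to 50 after the start, the core of the composite C/EBP-ATF element was found in those of Asns and Pycr1. They are shown because ATF4 is known to bind elements with this core, and the capitals mark TGATGNAA as it was found, on the gene's own strand. The Asns promoter lies at chr6:7693160-7693459, minus strand, with the match starting 23 bases before the annotated start, and the Pycr1 promoter at chr11:120643699-120643998, minus strand, with the match starting 103 bases before it.
Asns: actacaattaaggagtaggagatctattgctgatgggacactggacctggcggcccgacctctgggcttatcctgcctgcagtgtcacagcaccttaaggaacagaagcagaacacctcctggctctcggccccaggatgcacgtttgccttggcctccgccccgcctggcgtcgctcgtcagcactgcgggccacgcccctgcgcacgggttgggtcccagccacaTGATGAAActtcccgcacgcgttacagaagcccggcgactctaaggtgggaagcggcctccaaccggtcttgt
Pycr1: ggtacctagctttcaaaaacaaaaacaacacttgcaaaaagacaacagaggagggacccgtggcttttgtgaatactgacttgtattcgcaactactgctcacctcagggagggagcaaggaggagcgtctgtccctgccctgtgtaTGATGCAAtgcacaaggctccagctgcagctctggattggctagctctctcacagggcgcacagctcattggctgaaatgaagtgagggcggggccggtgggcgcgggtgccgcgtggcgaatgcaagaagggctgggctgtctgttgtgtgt
The search took TGATGNAA and its reverse complement TTNCATCA, and 3.97% of all 32851 promoters of the same length held a match. The windows of Atf4, Psat1, Phgdh, Psph, Shmt2, Mthfd2 and Aldh18a1 held none of these letters. Of the pair with a match, Asns was called lower and Pycr1 was not. A match is a run of letters, not a measured binding site.

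Proline synthesis starts with Aldh18a1, which turns glutamate into pyrroline carboxylate, and ends with a reductase, for which Pycr1 encodes a mitochondrial form. Aldh18a1 (ENSMUSG00000025007, chromosome 19, 40538701 to 40576907, minus strand) was at 78.0, 83.8, 76.9 and 70.7 CPM in overexpression libraries and 88.0, 91.8, 87.4 and 104 CPM in control libraries. No overexpression library reached the lowest control library, and the log2 fold change was -0.26 ± 0.07 (edgeR adjusted p = 0.00837). Pycr1 (ENSMUSG00000025140, chromosome 11, 120526538 to 120534595, minus strand) was at 16.6, 12.8, 11.2 and 10.7 CPM in overexpression libraries and 13.4, 16.2, 14.6 and 20.7 CPM in control libraries. Overexpression library 1 was the highest of its group and lay above 3 control libraries, and control library 4 was the highest of all.

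The log2 fold change of Pycr1 was -0.35 ± 0.14 (95% interval -0.64 to -0.05, edgeR adjusted p = 0.0653). With 195 to 422 counts per library it was the member with the fewest counts, and counting alone gives 7.16% error in the lowest library. It passed without overexpression library 1 (log2 fold change -0.49, edgeR adjusted p = 0.00705), without control library 1 (-0.43, 0.0310), with no low-count filter (0.0120) and with offsets for GC content and length (0.0320), and over all settings its adjusted p ran from 0.00705 to 0.246. Without control library 4 the estimate was -0.21. The related gene Pycr3, listed under its older symbol Pycrl, encodes a cytosolic form and was at 19.9 ± 1.10 CPM with overexpression and 15.03 ± 0.76 CPM in control libraries, a log2 fold change of 0.41 ± 0.09 (edgeR adjusted p = 0.00149).

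The log2 ratio of Pycr1 to Pycr3 counts in the same library, which needs no scaling between libraries, was -0.27, -0.66, -0.72 and -0.97 in overexpression libraries and -0.17, 0.03, -0.05 and 0.56 in control libraries. The groups did not overlap, and the means differed by -0.74 (two-sided exact permutation p = 0.0286, the smallest that 4 against 4 libraries allow, and 0.0667 after adjustment over 14 ratios).

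Cth, the lyase that releases cysteine from cystathionine (ENSMUSG00000028179, chromosome 3, 157599885 to 157630714, minus strand), had the largest fall of the 10. It was at 37.4, 23.4, 32.8 and 29.2 CPM in overexpression libraries and 40.5, 44.7, 50.7 and 55.0 CPM in control libraries. Every overexpression library was below every control library, and library 2 was the lowest. The mean was 30.7 ± 5.89 CPM with overexpression and 47.8 ± 6.42 CPM in control libraries, a log2 fold change of -0.64 ± 0.12 (95% interval -0.89 to -0.39, edgeR adjusted p = 4.52e-04), a change of -35.9%. The gene overlaps the predicted gene Gm43314 on the same strand, with 10 to 79 counts per library, against 515 to 1124 counts for Cth. Cbs, which makes the cystathionine that Cth cleaves, was at 8.42 ± 0.80 CPM with overexpression and 10.1 ± 1.56 CPM in controls and had a log2 fold change of -0.26 ± 0.12 (edgeR adjusted p = 0.119), passing only without control library 4 (-0.36, adjusted p = 0.0299). The log2 ratio of Cth to Cbs was 2.17, 1.32, 1.92 and 1.97 in overexpression libraries and 1.95, 2.17, 2.08 and 2.75 in control libraries. These overlapped, and the difference of -0.39 did not pass (exact permutation p = 0.229, adjusted p = 0.267).

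Neither of the mitochondrial one-carbon genes passed the test. Shmt2, which splits serine into glycine and a folate-bound carbon (ENSMUSG00000025403, chromosome 10, 127352992 to 127358313, minus strand), was at 285, 293, 268 and 267 CPM in overexpression libraries and 269, 319.8, 267 and 318 CPM in control libraries. The control libraries split into a pair near the overexpression level and a pair above it. The log2 fold change was -0.08 ± 0.07 (95% interval -0.23 to 0.07, edgeR adjusted p = 0.422). With 1 control library left out, the estimate ran from -0.12 (without library 3) to -0.04 (without library 2). It passed as lower with offsets for GC content and length (-0.17, edgeR adjusted p = 0.0233), and over all settings its adjusted p ran from 0.0233 to 0.730.

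Mthfd2, the dehydrogenase and cyclohydrolase of the next step (ENSMUSG00000005667, chromosome 6, 83282673 to 83302890, minus strand), was at 211, 222, 225 and 225 CPM in overexpression libraries and 232, 218, 232 and 200.1 CPM in control libraries. The groups overlapped throughout. The mean was 220.8 ± 6.98 CPM with overexpression and 220.8 ± 15.2 CPM in control libraries, and the log2 fold change of 0.0006 had a 95% interval of -0.13 to 0.13 (edgeR adjusted p = 0.995). The interval leaves out falls as large as the estimates of Psat1, Psph, Phgdh, Aldh18a1, Asns and Cth. The cytosolic counterpart Shmt1 and the related mitochondrial gene Mthfd2l were not called either, with log2 fold changes of 0.07 ± 0.07 and -0.15 ± 0.12 (edgeR adjusted p = 0.472 and 0.350). Neither the log2 ratio of Shmt2 to Shmt1 (2.34 ± 0.11 with overexpression and 2.48 ± 0.26 in controls, exact permutation p = 0.343, adjusted p = 0.369) nor that of Mthfd2 to Mthfd2l (4.89 ± 0.10 with overexpression and 4.74 ± 0.06 in controls, exact permutation p = 0.0571, adjusted p = 0.100) passed.

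Levels of different genes were compared per transcript length, in TPM (length-scaled counts-per-million over the tested genes). Asns was the highest of the 10 in both groups, at 1104 ± 33.5 TPM with overexpression and 1265 ± 11.3 TPM in control libraries. Atf4 came next with overexpression at 1053 ± 18.3 TPM, above Psat1 at 788 ± 28.7 TPM without overlap. In control libraries Psat1 (1040.3 ± 15.4 TPM) and Atf4 (994 ± 52.7 TPM) overlapped. The middle of the order was Shmt2 (314 ± 22.0 TPM with overexpression, 331 ± 36.1 TPM in control libraries), Mthfd2 (274 ± 9.48 TPM with overexpression, 273 ± 17.8 TPM in controls), Psph (226 ± 10.5 TPM with overexpression, 288 ± 16.0 TPM in controls) and Phgdh (139.6 ± 7.80 TPM with overexpression, 168 ± 9.88 TPM in controls). Psph overlapped its neighbours Shmt2 and Mthfd2 in control libraries and lay below both, without overlap, in overexpression libraries. Aldh18a1 (56.8 ± 5.28 TPM with overexpression, 67.9 ± 6.19 TPM in controls) and Cth (43.7 ± 7.99 TPM with overexpression, 67.8 ± 8.76 TPM in controls) overlapped in both groups. Pycr1 was the lowest at 11.4 ± 2.46 TPM with overexpression and 14.4 ± 2.91 TPM in controls. The order rests on the longest coding transcript of each gene, whose use in these cells was not measured.

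**Figure D3:**
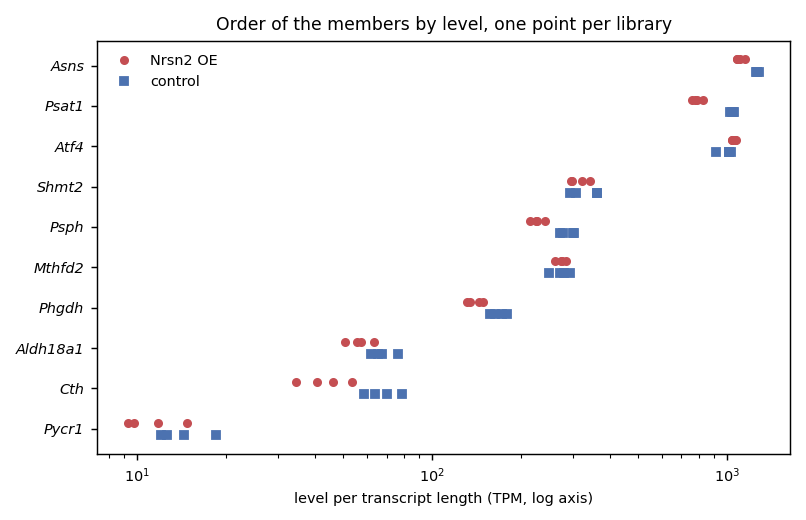
Level per transcript length in TPM (horizontal log axis) of the 10 genes, 1 point per library, with overexpression libraries (red circles) above control libraries (blue squares) in each row. Asns leads in both groups, and the Psat1 and Atf4 points touch in control libraries and are apart in overexpression libraries.

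The counts of each enzyme were also set against those of Atf4 in the same library. The log2 ratio of Psat1 to Atf4 was 0.15, 0.22, 0.22 and 0.14 in overexpression libraries and 0.80, 0.60, 0.61 and 0.66 in control libraries, so the groups were far apart. The difference was -0.49, with SDs of 0.04 among overexpression and 0.09 among control libraries. For Cth the difference was -0.73, for Psph -0.43, for Phgdh -0.35 and for Asns -0.28, each with no overlap between the groups. Aldh18a1 (-0.34), Pycr1 (-0.42), Shmt2 (-0.15) and Mthfd2 (-0.08) overlapped. Since Atf4 changed little (log2 fold change 0.08), these differences largely repeat each enzyme's own change and are not a separate result. The share of all tested genes whose ratio to Atf4 separates the groups was not counted, so these ratios have no background beside them. The 5 enzymes without overlap and the Pycr1 to Pycr3 ratio reached the smallest two-sided exact permutation p of 0.0286, and their p adjusted over the 14 ratios was 0.0667. Thus 0 of 14 ratios passed after adjustment and 6 had an unadjusted p under 0.05. With 0.0286 the smallest p possible, no ratio could pass after adjustment unless most of the 14 reached that p together. That 0 passed therefore cannot be read as likeness of the groups. Since they share Atf4, the 9 ratios of enzymes to Atf4 are not independent.

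**Figure D4:**
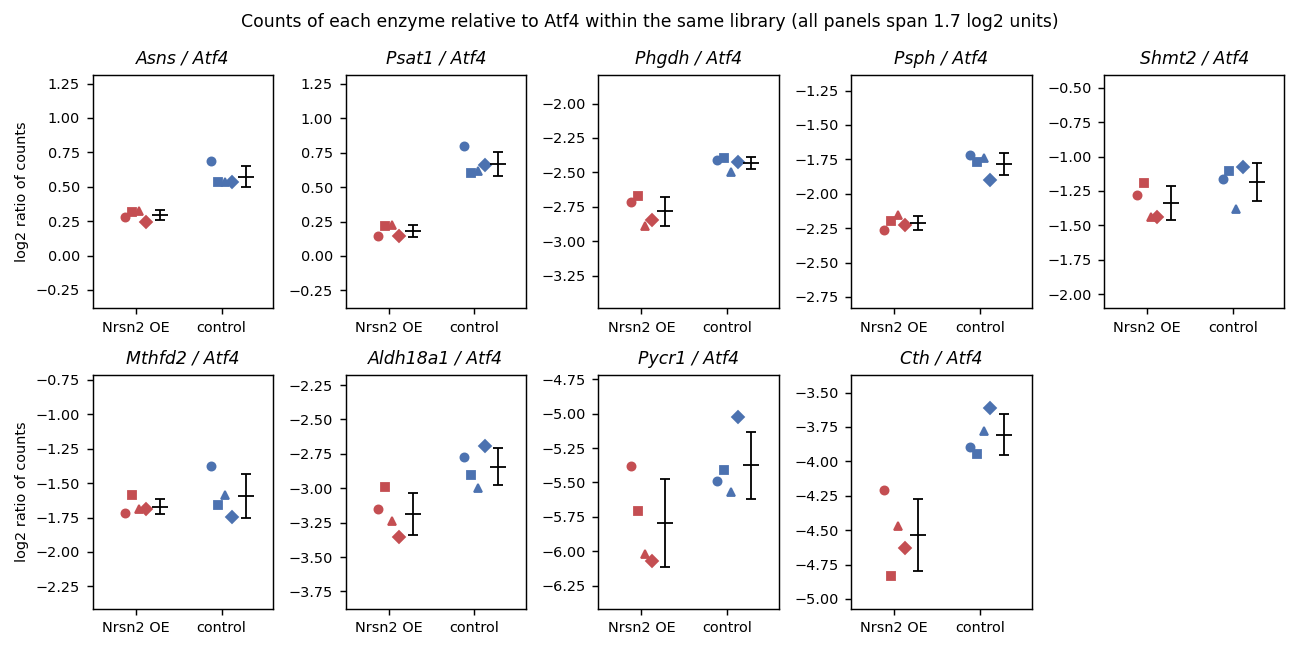
Log2 ratio of each enzyme's counts to the Atf4 counts of the same library (vertical axis, every panel spanning the same range) in overexpression (red, left) and control libraries (blue, right), with mean and SD. Psat1, Psph, Phgdh, Asns and Cth are apart, and Mthfd2 and Shmt2 overlap.

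The libraries in which the members were high or low differed between genes. Among control libraries, 3 of the 10 genes (Aldh18a1, Pycr1 and Cth) were highest in library 4, 4 in library 3, 2 in library 2 and 1 in library 1. Among overexpression libraries, 4 were highest in library 3, 3 in library 1, 2 in library 2 and 1 in library 4. By the root mean square difference of log2 CPM over the 8 libraries, each gene centred on its own mean, the closest pair of members was Psat1 and Psph at 0.07. Among genes outside the 10, those nearest to Atf4 were Kdelr2 (0.03), Rpl21 (0.03) and Pik3c3 (0.04). The nearest to the others were Txndc12 for Asns (0.03), Alg11 for Psat1 (0.02), Ifi30 for Phgdh (0.04), Decr1 for Psph (0.04), Zfhx2 for Shmt2 (0.03), Eif4enif1 for Mthfd2 (0.03), Atxn2 for Aldh18a1 (0.04), Sctr for Pycr1 (0.07) and Asah2 for Cth (0.08). These distances describe 8 libraries that share their group difference, searched over all tested genes.

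Other genes of the same pathways were taken from 4 lists by role, with 67 genes beside the 10 members, of which 64 were tested. Of these, 13 were higher and 10 lower, beside 18.6% and 16.8% of all tested genes. In the serine, glycine and one-carbon list, 3 of 18 were lower, 1 higher and 14 not called, with a median log2 fold change of 0.04. Aldh1l2, the mitochondrial enzyme that oxidises folate-bound formyl groups, fell to 128 ± 11.5 CPM with overexpression, against 172 ± 27.9 CPM in control libraries (log2 fold change -0.43 ± 0.09, edgeR adjusted p = 0.00160). It overlaps Nopchap1 on the opposite strand, which held 24446 to 34967 counts. The mitochondrial folate carrier Slc25a32 (-0.31 ± 0.10, edgeR adjusted p = 0.0182) had overlapping groups. It did not pass without control library 1, without control library 3 or with offsets for GC content and length, whether or not replicate number was a block. Without control library 1 or 3, or with those offsets, 1 gene of the list was lower.

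In the proline, glutamate and aspartate list, 4 of 14 were lower, 2 higher and 8 not called, with a median of -0.03. Of all tested genes, 16.8% were called lower and 18.6% higher. The mitochondrial alanine aminotransferase Gpt2 fell to 62.1 ± 2.61 CPM with overexpression, against 77.8 ± 4.25 CPM in control libraries (log2 fold change -0.33 ± 0.07, edgeR adjusted p = 8.28e-04). Got1, the cytosolic aspartate aminotransferase, fell to 193 ± 6.37 CPM with overexpression, against 246 ± 41.1 CPM in controls (-0.35 ± 0.09, edgeR adjusted p = 0.00459). Aldh4a1 of proline breakdown was lower (-0.48 ± 0.17, edgeR adjusted p = 0.0301), and the higher genes were Pycr3 and the cytosolic alanine aminotransferase Gpt (0.56 ± 0.17, edgeR adjusted p = 0.0176), Aldh4a1 and Gpt being named after their values were seen. Without control library 1 or 4 or overexpression library 1, Gpt did not pass and 1 gene of the list was higher. The same held with offsets for GC content and length and a block for replicate number (edgeR adjusted p = 0.0659 for Gpt). Aldh4a1 did not pass without overexpression library 1 or 2 or control library 2 or 3, with DESeq2, or with no low-count filter.

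In the list of sulfur amino acids and glutathione, 2 of 13 were higher, 2 lower and 9 not called, with a median of -0.02. Of all tested genes, 18.6% were called higher and 16.8% lower. Cdo1, the dioxygenase that consumes cysteine, rose to 3.51 ± 0.40 CPM with overexpression, against 1.01 ± 0.18 CPM in control libraries (log2 fold change 1.79 ± 0.20, edgeR adjusted p = 4.50e-06), from as few as 14 counts in a library. Ethe1, a dioxygenase of mitochondrial sulfide breakdown, was higher at 15.7 ± 1.12 CPM with overexpression, against 12.5 ± 1.03 CPM in controls (0.33 ± 0.10, edgeR adjusted p = 0.0121). It did not pass with offsets for GC content and length (edgeR adjusted p = 0.0525), or with those offsets and a block for replicate number (0.0846). Ahcyl1, a relative of the enzyme that hydrolyses adenosylhomocysteine, fell to 254 ± 5.21 CPM with overexpression, against 328 ± 17.4 CPM in controls (-0.37 ± 0.06, edgeR adjusted p = 1.65e-04). Glutathione synthetase Gss was lower at -0.30 ± 0.10 (edgeR adjusted p = 0.0284), not without control library 1 or 4 or overexpression library 1. Without control library 1 or overexpression library 1 only 1 gene of the list was lower. The Gss groups overlapped, and with 275 to 520 counts it shares 22544 bases with Acss2 on the opposite strand, which held 431 to 1218 counts.

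In the list of genes that control or partner ATF4, 8 of 19 were higher, 1 lower and 10 not called, with a median of 0.20. Of all tested genes, 18.6% were called higher and 16.8% lower. Ddit3, whose product CHOP pairs with ATF4, rose to 82.3 ± 4.14 CPM with overexpression, against 55.0 ± 12.2 CPM in control libraries (log2 fold change 0.58 ± 0.11, edgeR adjusted p = 6.31e-04), and overlaps Mars1 by 68 bases on the opposite strand. Gcn1, needed to activate the amino acid sensing kinase GCN2, rose to 93.4 ± 8.67 CPM with overexpression, against 69.8 ± 7.33 CPM in controls (0.42 ± 0.08, edgeR adjusted p = 6.68e-04). Fbxw11, a ubiquitin ligase subunit of the type that marks ATF4 for breakdown, was higher at 203 ± 11.6 CPM with overexpression, against 165 ± 9.42 CPM in controls (0.30 ± 0.06, edgeR adjusted p = 0.00160). Cebpg, which encodes a C/EBP partner of ATF4, was the lower gene at 116 ± 9.37 CPM with overexpression, against 149 ± 15.2 CPM in controls (-0.36 ± 0.08, edgeR adjusted p = 0.00135). Chosen by name only once values were known, the other higher genes were the growth kinase Mtor (0.26 ± 0.06), the eIF2 phosphatase subunit Ppp1r15a (0.59 ± 0.16), the eIF2 kinase Eif2ak1 (0.24 ± 0.07), the eIF2B subunit Eif2b1 (0.24 ± 0.07) and the ATF4 inhibitor Trib3 (0.36 ± 0.11). Ppp1r15a did not pass with DESeq2 (adjusted p = 0.0539). Its groups overlapped, control library 4 at 30.9 CPM lying above overexpression libraries 1 and 2 at 30.3 and 30.8 CPM. Eif2b1 did not pass without control library 4 or overexpression library 2 (edgeR adjusted p = 0.0578 and 0.0586). Trib3 did not pass without overexpression library 1, without control library 1 or 3 or with offsets for GC content and length (0.0527 to 0.0691). With those offsets and a block for replicate number, the edgeR adjusted p of Trib3 was 0.106.

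**Figure D5:**
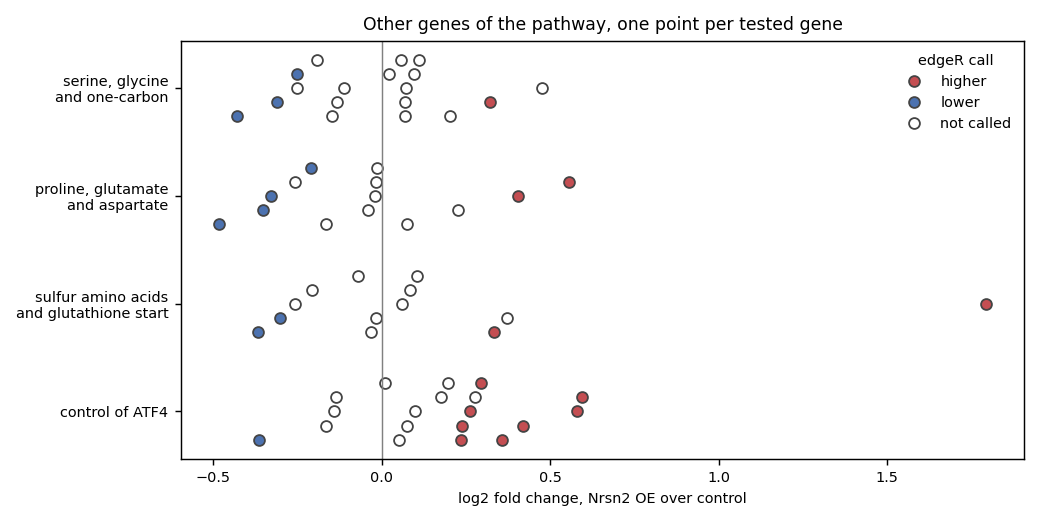
Log2 fold change, overexpression over control (horizontal axis), of the 64 other tested genes, grouped by list, 1 point per gene, with vertical offsets only to separate points. Red points were called higher, blue lower and white not called. Cdo1 is the point at 1.79, and called genes lie on both sides of zero in each list.

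The authors' deposited table marks 7 of the 10 genes as significant, beside 5923 of the 23163 genes that it tests. The highest adjusted p among the genes it marks is 0.0999. The 7 are the 6 called here and Pycr1, for which the authors' deposited table gives a log2 fold change of -0.35 with an adjusted p of 0.0651. For Atf4 the authors' deposited table gives 0.07 with an adjusted p of 0.519, and for Mthfd2 -0.01 with 0.958.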

How the data were processed

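PolyA RNA of 8 N2a libraries was sequenced as single-end reads from a kit that does not mark strand, per the labels' protocols. GRCm39 is the build in the submitters' processing notes, which list TopHat2 2.1.1 and HTSeq 2.01 beside cutadapt 2.10 and DESeq2 1.36.0, without annotation or strand setting. The authors deposited whole-number counts per gene, and 49164 of 55414 entries had values. Per the file headers, the authors' table also holds a normalized signal (counts over size factors, not used here), a log2 fold change with its error, a Wald score, a p-value and an adjusted p-value.

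The deposited counts were compared with edgeR 4.0.16 (R 4.3.3): filterByExpr at 10 counts, TMM, quasi-likelihood F test across 15187 genes, Benjamini-Hochberg adjustment, no covariate. The biological coefficient of variation was 0.0862, and counting error was 7.16% or less for every member. Standard errors came from the F statistic. DESeq2 1.42.0, limma-voom (limma 3.58.1), other scalings, filters, left-out libraries, a replicate block and offsets for GC content and length were alternatives. Ratios are log2 of counts plus 0.5, tested by two-sided exact permutation over 70 arrangements. TPM used the longest coding transcript in GENCODE M21 (GRCm38), matched by gene identifier for 99.8% of tested genes. Replicates of a group differed beyond counting noise in all 12 pairs (chi-square per degree of freedom 2.41 to 13.5). The fit and the permutation test were checked on simulated data. The members and lists were chosen with earlier results of these data known. Named genes were the 10 members, the 4 smallest p of each list, the partners in the ratios and the nearest gene to each member. Some listed genes and 1 ratio, counted in the totals, are not reported here.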

Additional observations from a re-analysis of the deposited data

Results flagged for a closer look

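Of 46 groups of 4 values examined (CPM of the 10 genes and 13 ratios, in each group of libraries), 1 held a library far from the other 3 by Dixon's ratio test at the 95% level. About 1 in 20 groups would do so by chance. The log2 ratio of Asns to Atf4 was 0.688 in control library 1, against 0.53 to 0.54 in the other control libraries, and that library held the lowest Atf4 level.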

How the results depend on the processing

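Each member was refitted under 17 other settings. Psat1, Phgdh, Psph, Aldh18a1 and Cth stayed lower and passed in all of them, and Asns in all but 1. Members called lower numbered 5 to 7 with 1 library left out, and 8 with offsets for GC content and length. Of all tested genes, 2078 to 2613 were lower and 2461 to 2898 higher with 1 library left out. With the offsets 2509 of all tested genes were lower and 3000 higher, and with offsets and replicate block 2247 were lower and 2750 higher. Mthfd2, close to zero, turned to -0.0090 with DESeq2 size factors, -0.0084 with upper quartile scaling, -0.0087 with DESeq2, -0.0008 without a filter, -0.0287 with the offsets, -0.0276 with offsets and block, and ran from -0.0497 to 0.0241 with 1 library left out. With the offsets, without and with the block, Atf4 turned to -0.0101 and -0.0100, and 1 other serine and one-carbon gene was lower. With offsets and block, 1 proline gene and 1 sulfur gene were higher. With 1 library left out, the lower genes numbered 1 to 4 in the serine list and 1 to 2 in the sulfur list, and the higher genes 1 to 3 in the proline list. The causes were not tested. With the replicate block alone 6 members were lower, as without it, and 2705 genes were higher and 2392 lower. Equal replicate numbers were not taken as pairs, since their deviations correlated at -0.10 to 0.06 and 1 of 4 overexpression libraries correlated best with the control library of its own number. Among the members, counting error was largest for Pycr1, at 7.16% in its lowest library. The spread of Pycr1 between libraries was wider, at 12.8 ± 2.65 CPM with overexpression and 16.2 ± 3.19 CPM in control libraries (mean and SD).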

Other observations

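Trib3, one of the ATF4-related genes that were higher, is a chromosomal neighbour of Nrsn2. On GRCm39 chromosome 2 it spans 152179342 to 152185952, and Nrsn2 spans 152210675 to 152218558, with 24723 bases between them. It was at 32.4 ± 4.38 CPM with overexpression and 25.2 ± 4.05 CPM in control libraries (SD, n = 4 each), with overlapping groups. This was noticed after the values were seen, and its part in the result was not tested.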
